A study of Mus musculus with 24 samples.

Results

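The genes described here are 10 genes that fibroblasts of the meninges express, collagens left aside: Dcn, Lum, Ogn, Fn1, Mgp, Igf2, Igfbp2, Aldh1a2, Slc6a13 and Foxc1. Each was found by its Ensembl identifier among the 53647 gene rows of a read count table from mouse cortex, and all 10 were among the 21280 genes with enough counts to be tested. The table holds 24 bulk RNA-seq libraries from the cortex of mice 7.5 months old, 8 of each of 3 genotypes, with 4 libraries titled F and 4 titled M in each. The first genotype is 5xFAD, a model of amyloid disease that carries human transgenes with familial Alzheimer mutations under the neuronal Thy1 promoter. The other two are 5xFADM28L and 5xFADP522R, which carry the same transgenes together with the Plcg2 variant of their name, marked HOM (homozygous) in the titles. Plcg2 encodes the phospholipase C gamma 2 of microglia and other immune cells. In people M28L is associated with a higher and P522R with a lower risk of Alzheimer's disease, and the series set the 2 variants against unaltered Plcg2. All 3 groups carry the 5xFAD transgenes, so no comparison here is with a healthy brain.

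Meningeal fibroblasts build the layers of connective tissue that wrap the brain, and related fibroblasts follow the larger vessels into the cortex. They secrete collagens, fibronectin and small leucine-rich proteoglycans, which bind collagen fibrils and set their thickness. They also make retinoic acid, insulin-like growth factor 2 and its binding proteins, and carry transporters that move solutes across the arachnoid barrier, and their identity depends on forkhead factors such as Foxc1. Few of the 10 genes are theirs alone: Igfbp2 is also made by astrocytes and choroid plexus, Fn1 by endothelial cells, Mgp by vessel walls, Igf2 by choroid plexus, and Foxc1 by mural and endothelial cells. In bulk tissue more cells of a type and more RNA per cell cannot be told apart, and no label says how much membrane stayed on each dissected cortex.

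Total counts per library were 79230161 to 115154197 in 5xFAD, 92358031 to 111292787 in M28L and 94698916 to 106089349 in P522R. The 10 fibroblast genes were a small part of the counts: their levels, in CPM (counts scaled to a common library total), summed to between 92.6 and 197. The sums were 6570 to 9110 for 10 neuronal genes and 4780 to 7310 for 10 astrocyte genes, with no scaling by gene length. Xist and Ddx3y matched the title letter in all 24 libraries. Plcg2 had medians of 9.32, 8.04 and 18.3 CPM in 5xFAD, M28L and P522R, and these counts do not show the edited base. The libraries also differed by genotype in Bc1, a neuronal noncoding RNA, which took a median of 5.25% of all counts in 5xFAD, 3.82% in M28L and 9.09% in P522R. It took over 10% in 5 libraries, 5xFAD replicate 1180 and P522R replicates 8, 106, 24 and 31, and fewer genes were detected in P522R (22958 to 26648) than in 5xFAD (27831 to 29012). The main counts below are also given without those 5 libraries. The replicates are named by animal number in the titles.

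Read counts depend on transcript length, so levels of different genes were set side by side as CPM per kilobase of the length in the deposited table. On that scale Igfbp2 was highest, at a mean of 19.7 over the 24 libraries, followed by Mgp at 7.19, Slc6a13 at 4.40, Aldh1a2 at 3.89, Fn1 at 3.35, Dcn at 3.21, Ogn at 1.96, Foxc1 at 0.754, Lum at 0.646 and Igf2 at 0.197. Igfbp2 was above Mgp, Mgp above Slc6a13, Dcn above Ogn, Ogn above Foxc1 and Lum above Igf2 in all 24 libraries. Slc6a13, Aldh1a2, Fn1 and Dcn lay within each other's spread: Slc6a13 was above Aldh1a2 in 15 libraries, Aldh1a2 above Fn1 in 17 and Fn1 above Dcn in 11.

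More of the 10 genes passed the test in P522R cortex than in M28L cortex, each compared with 5xFAD cortex. Against 5xFAD, 8 of the 10 rose in P522R and none fell, while 1 of 10, Fn1, rose in M28L and none fell, by edgeR's quasi-likelihood test at an adjusted p of 0.05 over all genes tested. Over all genes tested, 15.0% were called higher and 14.8% lower in P522R, and 0.503% higher and 0.71% lower in M28L, so the background of calls differed greatly between the comparisons. The median log2 difference of the 10 genes was 0.537 in P522R and 0.296 in M28L, beside medians over all genes of -0.044 and 0.006. All 10 fitted differences were above 0 in both comparisons, which share the 5xFAD libraries. With Bc1 share as a covariate 6 of the 10 genes were called higher in P522R, and without the 5 libraries over 10% Bc1 7 were. Of all genes, 2.65% and 5.71% were called higher in those settings, in place of 15.0%. Calls over all genes in either direction went from 6344 to 889 and to 2563. The p-values measure the spread between libraries that the titles give to separate animals.

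**Figure D1:**
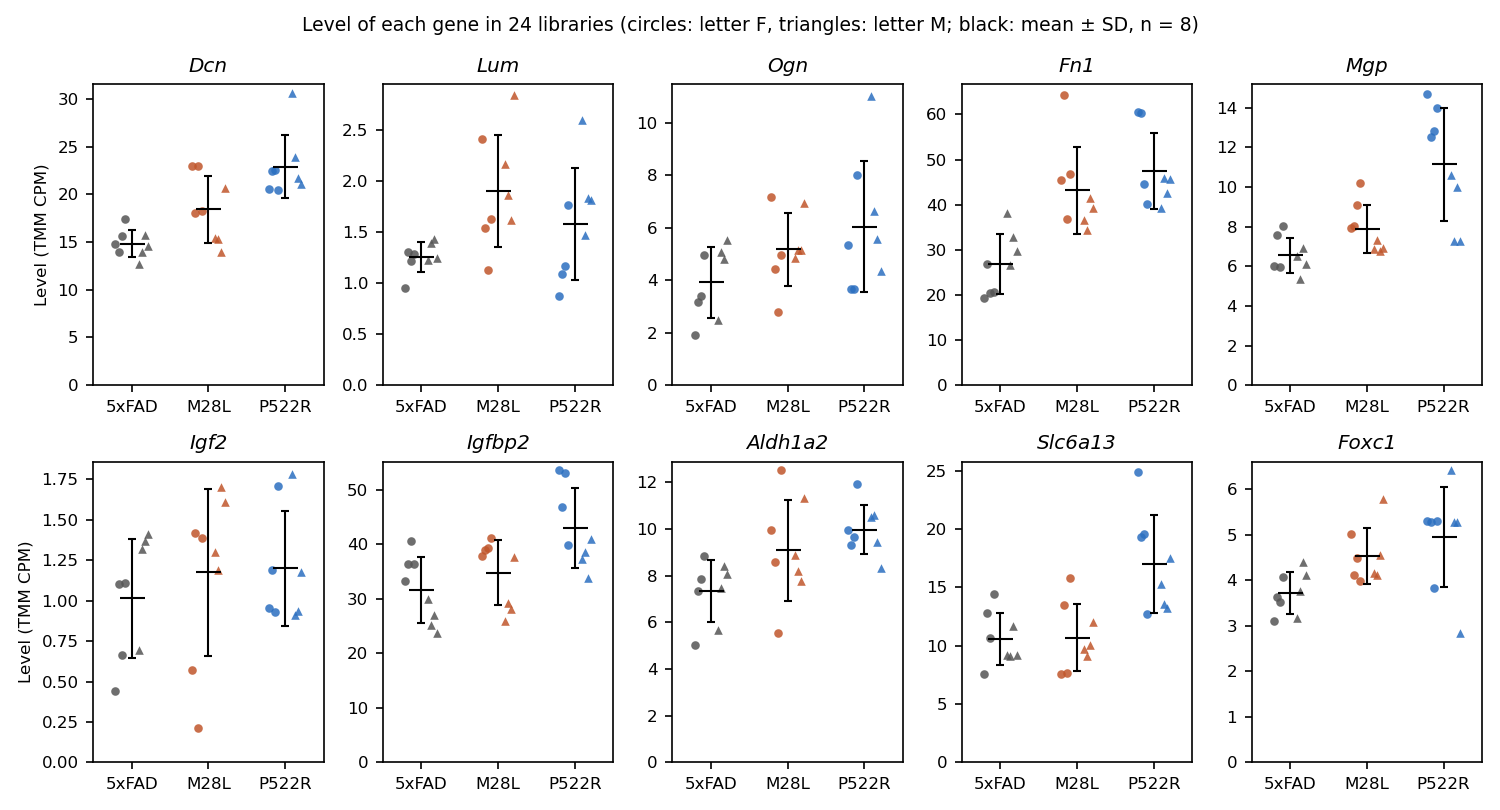
CPM of each of the 10 genes (vertical axis) in every library, by genotype and title letter, with the mean and SD of each genotype. For Dcn and Fn1 the 8 P522R libraries lie above all 8 5xFAD libraries; for Igf2 the 3 genotypes overlap throughout.

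Decorin (Dcn, ENSMUSG00000019929.17, chr10:97315471-97354005, plus strand, in the deposited table, which names no genome build) is a small leucine-rich proteoglycan that binds collagen fibrils and TGF-beta. Its 8 values spanned 12.7 to 17.4 CPM in 5xFAD (median 14.7), 13.9 to 23.0 in M28L (median 18.1) and 20.4 to 30.6 in P522R (median 22.1). Every P522R library was above every 5xFAD library, as was so for 2 of the 10 genes (Dcn and Fn1) and for 1.71% of all genes tested, and the M28L libraries spanned both ranges. Dcn rose 1.55-fold in P522R (log2 difference 0.63, SE 0.10, adjusted p = 4.47e-05), and was 1.24-fold higher in M28L without passing the test (log2 difference 0.31, SE 0.10, adjusted p = 0.15).

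Lumican (Lum, ENSMUSG00000036446.6, chr10:97400990-97408565, plus strand) is a keratan sulfate proteoglycan of the same family, and its gene starts 47.0 kb after the end of Dcn. Lum was scarce: 0.952 to 1.43 CPM in 5xFAD, 1.13 to 2.85 in M28L and 0.873 to 2.60 in P522R, with medians of 1.27, 1.75 and 1.62. The P522R libraries reached both below and above the whole 5xFAD range. Neither difference from 5xFAD passed the test (M28L: log2 difference 0.58, SE 0.17, adjusted p = 0.0864; P522R: 0.30, SE 0.17, adjusted p = 0.192). The M28L difference passed in 4 of the 10 planned settings other than leaving out 1 library: DESeq2 (adjusted p = 0.0311), limma-voom (0.00178), GC and length offsets (0.0192) and only those 2 genotypes (0.0304). The P522R difference passed in 1, GC and length offsets (0.39, adjusted p = 0.0439). The ratio of Dcn to Lum CPM within a library had a median of 11.3 in 5xFAD, 9.08 in M28L and 14.1 in P522R, with ranges that overlapped (10.1 to 15.6, 7.11 to 20.4 and 11.5 to 23.4).

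Osteoglycin (Ogn, ENSMUSG00000021390.7, chr13:49761522-49777977, plus strand) is the third proteoglycan of the set. It lies inside the span of Cenpp on the other strand, which had a median of 0.58 CPM, and no source used here says whether the counting used strand. Ogn ran from 1.92 to 5.53 CPM in 5xFAD, 2.77 to 7.16 in M28L and 3.67 to 11.0 in P522R, with medians of 4.10, 5.06 and 5.45. The 3 ranges overlapped. Ogn rose in P522R (log2 difference 0.62, SE 0.21, adjusted p = 0.0287), but the call was lost with limma-voom (adjusted p = 0.0771) and with no letter term (0.0505), and when 5xFAD replicate 1180 or 1177, or P522R replicate 54 or 21, was left out (adjusted p from 0.0584 to 0.0749).

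Fibronectin (Fn1, ENSMUSG00000026193.16, chr1:71624679-71692359, minus strand) is the matrix glycoprotein on which cells spread through integrins and onto which collagens assemble. Its 8 values were 19.4 to 38.2 CPM in 5xFAD (mean 26.8 ± 6.64 SD, n = 8), 34.4 to 64.4 in M28L (43.2 ± 9.61) and 39.2 to 60.6 in P522R (47.4 ± 8.44). The lowest P522R library was above the highest 5xFAD library, and in M28L the ranges overlapped. Fn1 was the only one of the 10 genes called in M28L (log2 difference 0.68, SE 0.14, 1.61-fold, adjusted p = 0.00998), and it rose in P522R too (0.82, SE 0.14, 1.76-fold, adjusted p = 9.68e-05). With the share of counts in Bc1 as a covariate the M28L difference was 0.66 and no longer passed (adjusted p = 0.11).

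Matrix Gla protein (Mgp, ENSMUSG00000030218.3, chr6:136849433-136852821, minus strand) is a vitamin K-dependent inhibitor of calcification. It ran from 5.38 to 8.02 CPM in 5xFAD, 6.77 to 10.2 in M28L and 7.25 to 14.7 in P522R, with medians of 6.30, 7.62 and 11.6. The values of P522R replicates 23 and 31, both titled M, reached down into the 5xFAD range at 7.25 CPM. Mgp rose in P522R (log2 difference 0.73, SE 0.10, 1.66-fold, adjusted p = 7.95e-06), the smallest adjusted p of the 10 genes in that comparison. Its M28L difference of 0.26 (SE 0.10) did not pass (adjusted p = 0.292).

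The growth factor gene Igf2 (ENSMUSG00000048583.17, chr7:142204503-142220553, minus strand) and Igfbp2 (ENSMUSG00000039323.19, chr1:72863662-72891633, plus strand), which encodes a secreted protein that binds insulin-like growth factors, differed in level and in outcome. Igf2 ran from 0.440 to 1.41 CPM in 5xFAD, 0.213 to 1.70 in M28L and 0.911 to 1.78 in P522R, so the genotypes overlapped almost fully. Its differences from 5xFAD were 0.20 in M28L (95% interval -0.342 to 0.735, adjusted p = 0.869) and 0.27 in P522R (-0.272 to 0.810, adjusted p = 0.503). The gene model Gm49394 overlaps Igf2 on the same strand, with at most 5 counts in a library, so the Igf2 counts are uncertain. Igfbp2 ran from 23.8 to 40.5 CPM in 5xFAD (median 31.7), 26.0 to 41.1 in M28L (median 37.8) and 33.7 to 53.6 in P522R (median 40.4). It rose 1.37-fold in P522R (log2 difference 0.45, SE 0.08, adjusted p = 8.56e-05). The call was lost with Bc1 share as a covariate (0.33, adjusted p = 0.065) and with GC and length offsets (0.21, adjusted p = 0.0755).

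Aldh1a2 (ENSMUSG00000013584.6, chr9:71123071-71203525, plus strand) encodes the dehydrogenase that makes retinoic acid in the meninges. Its medians were 7.66 CPM in 5xFAD, 8.72 in M28L and 9.82 in P522R, with ranges of 5.03 to 8.82, 5.54 to 12.5 and 8.32 to 11.9. In P522R 7 of 8 libraries were above all 5xFAD libraries, the other being replicate 31 at 8.32, and M28L covered nearly both ranges. Aldh1a2 rose 1.36-fold in P522R (log2 difference 0.44, SE 0.13, adjusted p = 0.0106), and its M28L difference was 0.31 (SE 0.13, adjusted p = 0.328).

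Slc6a13 (ENSMUSG00000030108.15, chr6:121277186-121314692, plus strand) encodes GAT2, a transporter of GABA and taurine in the leptomeninges. It ran from 7.57 to 14.4 CPM in 5xFAD, 7.60 to 15.8 in M28L and 12.7 to 24.9 in P522R, with medians of 9.93, 9.91 and 16.4. The M28L and 5xFAD libraries covered nearly the same range, with a log2 difference of 0.02 (95% interval -0.274 to 0.309, adjusted p = 0.982). Slc6a13 rose 1.60-fold in P522R (0.68, SE 0.15, adjusted p = 0.00108). The 4 P522R libraries with over 10% of counts in Bc1 had 17.5 to 24.9 CPM and the other 4 had 12.7 to 15.3. Without the 5 libraries over that limit the difference was 0.35 and did not pass (adjusted p = 0.182), and with Bc1 share as a covariate it was 0.68 with an adjusted p of 0.0843.

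Foxc1 (ENSMUSG00000050295.5, chr13:31990616-31996459, plus strand) encodes a forkhead transcription factor that the meninges need to form. Its medians were 3.70, 4.33 and 5.29 CPM in 5xFAD, M28L and P522R, with ranges of 3.11 to 4.40, 3.99 to 5.80 and 2.84 to 6.43. The P522R group held both the highest and the lowest of all 24 values. Foxc1 rose in P522R (log2 difference 0.41, SE 0.12, adjusted p = 0.013), a call that was lost with GC and length offsets (0.26, adjusted p = 0.221). Its M28L difference was 0.28 (SE 0.12, adjusted p = 0.36).

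**Figure D2:**
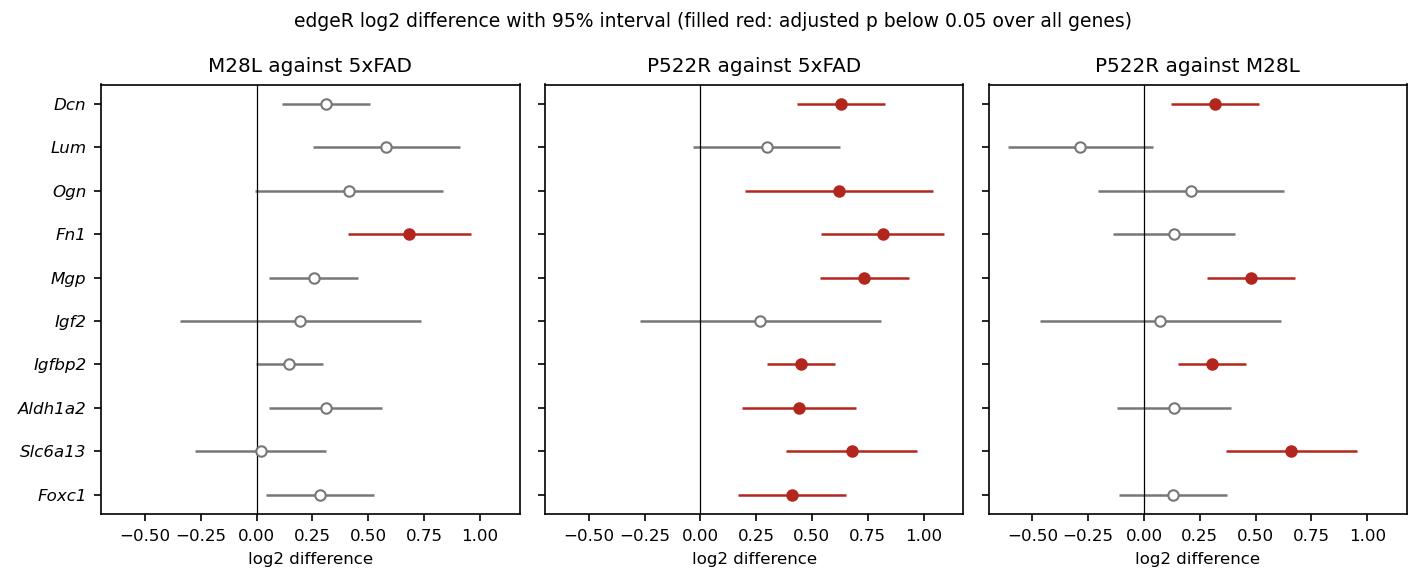
Log2 differences of the 10 genes (horizontal axis) in the comparisons of genotypes, with 95% intervals (1.96 SE either side); filled points passed the test at an adjusted p of 0.05. Fn1 is the only filled point for M28L against 5xFAD, and 8 genes are filled for P522R against 5xFAD.

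Set against each other, the 2 variants differed in 4 of the 10 genes, all higher in P522R: Slc6a13 (log2 difference 0.66, SE 0.15, adjusted p = 0.00109), Mgp (0.48, SE 0.10, adjusted p = 0.000589), Dcn (0.32, SE 0.10, adjusted p = 0.0147) and Igfbp2 (0.31, SE 0.08, adjusted p = 0.00285). Over all genes tested 16.5% were called higher and 18.3% lower in that comparison. Fn1, the gene called in both variants against 5xFAD, differed between them by 0.13 (95% interval -0.139 to 0.406, adjusted p = 0.491). Lum was the only one of the 10 with a fitted value below 0, at -0.28 (SE 0.17, adjusted p = 0.194). With Bc1 share as a covariate none of the 10 genes was called, and the calls over all genes fell from 7405 to 20. The median log2 difference of the 10 genes was 0.55 in that fit and 0.172 in the main fit, so it did not shrink. Bc1 share was 3.0% to 6.01% in M28L and 5.32% to 19.8% in P522R, so that fit separates genotype from Bc1 poorly. Without the 5 libraries over 10% Bc1, Dcn and Mgp stayed called, while Slc6a13 (0.41, adjusted p = 0.1) and Igfbp2 (0.22, adjusted p = 0.122) did not. In that setting 6.62% of all genes were called higher. The Igfbp2 call was also lost with no letter term (0.30, adjusted p = 0.065), and with GC and length offsets the sign turned (-0.064, adjusted p = 0.625).

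Among F libraries Fn1 had the largest log2 difference of the 10 genes in both variants; among M libraries Dcn did in P522R, and Lum, not called, in M28L (0.68). In the F libraries it was 19.4, 20.4, 20.6 and 26.8 CPM in 5xFAD, 36.8, 45.5, 46.8 and 64.4 in M28L, and 40.2, 44.5, 60.4 and 60.6 in P522R. In the M libraries it was 26.6, 29.8, 32.8 and 38.2 in 5xFAD, 34.4, 36.7, 39.3 and 41.6 in M28L, and 39.2, 42.6, 45.7 and 45.9 in P522R. Both variants were thus fully above 5xFAD among F libraries, whereas among M libraries M28L overlapped 5xFAD and P522R did not. Among F libraries 2 of the 10 genes in M28L (Dcn and Fn1) and 4 in P522R (those and Mgp and Aldh1a2) had all 4 values above all 4 of 5xFAD, as did 3.03% and 9.43% of all genes tested. Among M libraries this held for 1 gene in M28L (Lum) and 6 in P522R (Dcn, Lum, Fn1, Mgp, Igfbp2 and Slc6a13), beside 6.08% and 9.44% of all genes. The log2 difference in F libraries was 1.15 in M28L (SE 0.15, adjusted p = 7.24e-05) and 1.24 in P522R (SE 0.15, adjusted p = 2.29e-05). In M libraries it was 0.25 in M28L (adjusted p = 0.975) and 0.44 in P522R (SE 0.15, adjusted p = 0.0425). The test of the difference between the letters did not pass after adjustment, for M28L (0.89, SE 0.21, adjusted p = 0.261) or for P522R (0.79, SE 0.21, adjusted p = 0.147).

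Dcn had its larger P522R value in the M libraries. There it was 12.7, 14.0, 14.6 and 15.7 CPM in 5xFAD, 13.9, 15.3, 15.4 and 20.7 in M28L, and 21.1, 21.7, 23.9 and 30.6 in P522R. In the F libraries it was 13.9, 14.8, 15.6 and 17.4 in 5xFAD, 18.0, 18.2, 23.0 and 23.0 in M28L, and 20.4, 20.5, 22.4 and 22.5 in P522R. M28L therefore sat with 5xFAD among M libraries, with 1 library apart, and with P522R among F libraries. P522R exceeded M28L by 0.58 in M libraries (SE 0.13, adjusted p = 0.00249), a comparison with 8.87% of all genes called higher, and the letters differed in that comparison by -0.52 without passing (F minus M, SE 0.18, adjusted p = 0.075).

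Mgp in F libraries was 12.5 to 14.7 CPM in P522R, above the 7.92 to 10.2 of M28L and the 5.98 to 8.02 of 5xFAD. In M libraries it was 7.25 to 10.6 in P522R, 6.77 to 7.32 in M28L and 5.38 to 6.93 in 5xFAD. Its rise in P522R over 5xFAD was 0.97 in F libraries (adjusted p = 5.05e-05) and 0.50 in M libraries (adjusted p = 0.0108). Igfbp2 rose in both, by 0.40 in F libraries (adjusted p = 0.0112) and by 0.50 in M libraries (adjusted p = 0.00267). Slc6a13 rose in F libraries by 0.75 (adjusted p = 0.0138), and in M libraries its difference was 0.60 with no overlap between the groups (adjusted p = 0.0531). Of the 10 genes, 5 were called higher in P522R among F libraries and 4 among M libraries, against 11.5% and 8.68% of all genes tested. In M28L 1 of the 10, Fn1, was called higher among F libraries, beside 0.235% of all genes. None was called in M28L among M libraries (higher in 0.0235% of all genes), where 1 had an unadjusted p under 0.05 in edgeR's test. No test of a difference between letters was called for any of the 10 genes in edgeR, where 1, 2 and 1 of them had an unadjusted p under 0.05 for M28L against 5xFAD, P522R against 5xFAD and P522R against M28L. The shares of all genes called in those tests were 0.0282%, 0.0% and 5.47%.

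Of the 4 P522R F libraries 3 were over 10% Bc1. Leaving out the 5 libraries over 10% Bc1 was a planned setting for the fit over both letters. Its use within letters was added after the data were seen. It left 1 P522R F library, which is assumed to vary like the other groups. None of the 10 genes was then called in P522R among F libraries in edgeR, where 4 had an unadjusted p under 0.05 and 0.0045% of all genes were called higher. Fn1 was 0.83 there (adjusted p = 0.304), Mgp 0.96 (adjusted p = 0.143), Dcn 0.39 (adjusted p = 0.824), Igfbp2 0.09 (adjusted p = 0.999) and Slc6a13 0.01 (adjusted p = 1). The Mgp difference was about as large as with all libraries, and those of Igfbp2 and Slc6a13 were near 0. Among M libraries, 3 of P522R, Dcn (0.82, adjusted p = 0.000988), Mgp (0.56, adjusted p = 0.00902), Igfbp2 (0.45, adjusted p = 0.00924) and Foxc1 (0.54, adjusted p = 0.0165) were called higher, beside 6.51% of all genes, and Fn1 was not (0.40, adjusted p = 0.085). In M28L Fn1 among F libraries stayed called (1.10, adjusted p = 0.00101).

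Over all genotypes, F libraries had more Igfbp2 (log2 difference 0.40, SE 0.06, adjusted p = 2.13e-05) and Mgp (0.37, SE 0.08, adjusted p = 0.00102) than M libraries, and less Lum (-0.38, SE 0.14, adjusted p = 0.0318). Of all genes tested, 16.4% were called higher in F libraries and 17.4% lower.

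**Figure D3:**
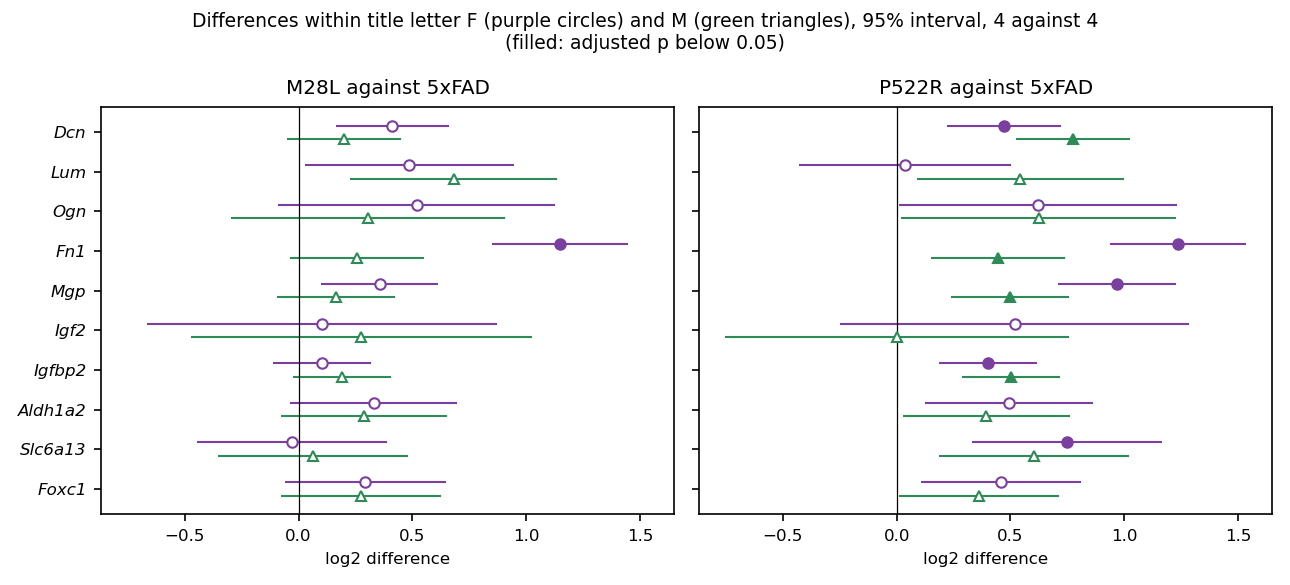
Log2 differences from 5xFAD (horizontal axis) of the 10 genes in M28L and P522R, fitted within the F libraries (purple circles) and the M libraries (green triangles), 4 against 4, with 95% intervals; filled symbols passed the test at an adjusted p of 0.05. Fn1 sits at 1.15 and 1.24 in F libraries and at 0.25 and 0.44 in M libraries.

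The 10 genes did not move as a single block from library to library. After the means of genotype and letter were removed, the 45 pairs of genes had a median Pearson r of 0.244 over the 24 libraries, 30 pairs were above 0 and 7 above 0.5. These correlations are a description, and the points share depth and dissection. Ogn and Aldh1a2 varied most closely together (r = 0.797, Spearman rho 0.857), followed by Igf2 and Aldh1a2 (0.717, rho 0.550), Ogn and Foxc1 (0.660, rho 0.740), Lum and Ogn (0.641, rho 0.560) and Igf2 and Slc6a13 (0.604, rho 0.578). Igfbp2 and Slc6a13 came 8th, at 0.497. Fn1 and Lum were the lowest pair, at -0.303, so the gene called in both variants was not the one that followed the proteoglycans. Among P522R libraries, the 4 over 10% Bc1 had 40.9 to 53.6 CPM of Igfbp2 against 33.7 to 39.8 in the other 4, and 3.67 to 5.35 CPM of Ogn against 5.56 to 11.0. Igfbp2 and Slc6a13 were therefore high, and Ogn low, in the same libraries. Of those 4 libraries, 3 were titled F, and the part of Bc1, of letter or of dissection in this was not tested.

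Single libraries also stood out. The library of 5xFAD replicate 1180 was the lowest of its 8 for 7 of the 10 genes, and P522R replicate 21 was the highest of its 8 for 5. Without replicate 1180, all calls against 5xFAD other than that of Ogn stayed. The genes outside the set whose residual variation was most like the mean of the 10 were H2-Q1 (r = 0.824, rho 0.790), Mpzl2 (0.798, rho 0.724), Slc13a4 (0.796, rho 0.668), Asgr1 (0.786, rho 0.698) and Fmod (0.782, rho 0.685), over the 24 libraries.

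**Figure D4:**
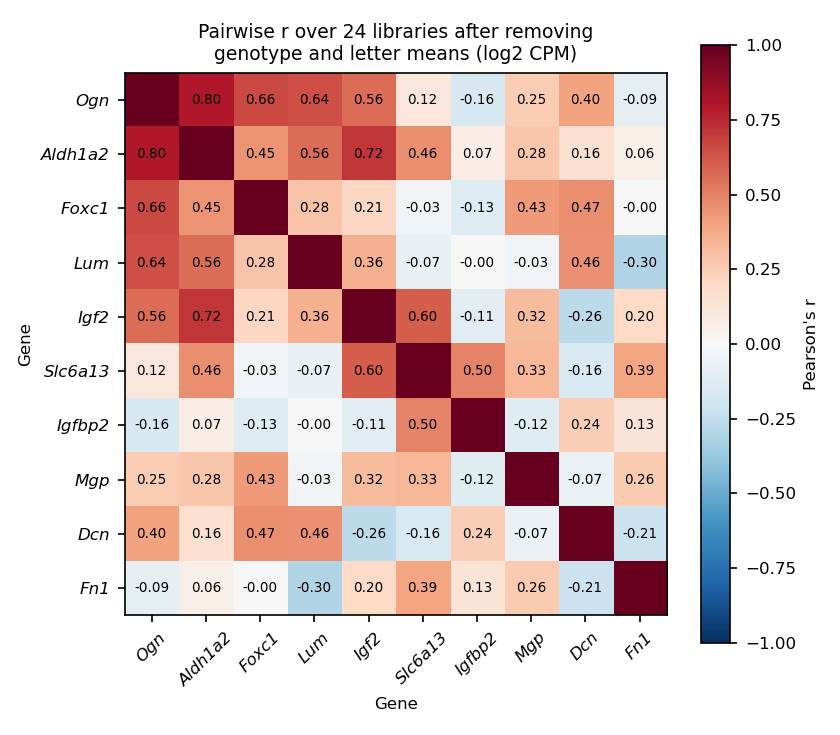
Pearson correlation (colour) between each pair of the 10 genes over 24 libraries after removing genotype and letter means. Ogn and Aldh1a2 are the closest pair at 0.797, and Lum and Fn1 the lowest at -0.303.

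Promoter sequence was held in the RefSeq table for 6 of the 10 genes (build GRCm38.p6), and the 250 bases before the gene start are shown for Ogn and Aldh1a2, the closest pair, and for Igfbp2 and Slc6a13, which were high in the same P522R libraries, both chosen after the values were seen. Capitals mark matches, on either strand, to the forkhead motif GTAAACA, the TEAD motif GGAATG, the AP-1 motif TGANTCA, the SMAD motif CAGACA, the TATA box TATAAA or the GC box GGGCGG. No match of one motif overlapped a match of another in these windows, and the 2 TATA box matches of Ogn overlap each other. All 4 are on the plus strand: Ogn at chr13:49607765-49608014, Aldh1a2 at chr9:71215539-71215788, Igfbp2 at chr1:72824230-72824479 and Slc6a13 at chr6:121300038-121300287. These positions do not line up with those given above from the deposited table, where Aldh1a2 ends at 71203525, before its window here. Positions from RefSeq and from the deposited table should therefore not be compared.
Ogn: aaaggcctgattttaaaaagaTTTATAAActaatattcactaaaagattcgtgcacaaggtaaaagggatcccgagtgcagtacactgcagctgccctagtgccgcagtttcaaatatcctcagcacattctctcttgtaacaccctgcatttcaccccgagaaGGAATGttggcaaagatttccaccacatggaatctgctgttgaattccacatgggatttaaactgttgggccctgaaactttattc
Aldh1a2: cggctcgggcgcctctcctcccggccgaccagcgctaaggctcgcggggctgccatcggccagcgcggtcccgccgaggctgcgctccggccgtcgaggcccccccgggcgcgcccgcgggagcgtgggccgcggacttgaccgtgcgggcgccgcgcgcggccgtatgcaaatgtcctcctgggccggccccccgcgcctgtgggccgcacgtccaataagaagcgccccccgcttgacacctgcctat
Igfbp2: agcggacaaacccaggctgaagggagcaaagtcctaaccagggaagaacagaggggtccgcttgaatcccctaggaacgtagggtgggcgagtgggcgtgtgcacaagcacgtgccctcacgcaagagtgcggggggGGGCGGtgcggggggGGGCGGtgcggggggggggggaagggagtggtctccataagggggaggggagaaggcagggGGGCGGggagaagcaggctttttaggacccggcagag
Slc6a13: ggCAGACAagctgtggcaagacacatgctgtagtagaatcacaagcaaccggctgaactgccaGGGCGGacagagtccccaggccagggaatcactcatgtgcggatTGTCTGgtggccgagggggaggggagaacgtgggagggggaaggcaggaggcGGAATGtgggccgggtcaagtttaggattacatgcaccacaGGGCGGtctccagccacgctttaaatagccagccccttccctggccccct
The closest pair was unlike in sequence: the Ogn window was 42.0% G and C with a TATA box match, and the Aldh1a2 window was 77.6% G and C with no match to the 6 motifs. Igfbp2 and Slc6a13 both held GC box matches, a motif present in 32.7% of all 32851 promoter windows of this length. Ogn and Slc6a13 each held GGAATG, which 12.6% of windows hold. The forkhead motif, present in 3.17% of windows, was in none of these 4. A match is a description of letters and not of a bound site.

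Other genes of the same cells and pathways were described from lists, with most counts in P522R against 5xFAD also given without the 5 libraries over 10% Bc1, where 5.71% of all genes were called higher in place of 15.0%. Of 30 other genes of meningeal fibroblasts, 20 rose in P522R against 5xFAD, none fell and the median log2 difference was 0.457; without those libraries 11 rose (median 0.344). They included Foxc2, a forkhead factor, at 1.36 to 2.47 CPM in P522R against 0.317 to 0.812 in 5xFAD (log2 difference 1.63, adjusted p = 1.39e-07), and the solute carriers Slc13a3 (0.95), Slc22a6 (0.76) and Slc22a2 (1.23). In M28L none of the 30 was called in edgeR, where 8 had an unadjusted p under 0.05. The list also holds genes that other brain cells express, such as Ptgds, Vim and Gjb6. Of 12 fibroblast collagens 5 rose in each variant against 5xFAD, beside 0.503% of all genes called higher in M28L and 15.0% in P522R. The median log2 difference of the collagens was 0.39 in M28L and 0.189 in P522R. Without those libraries 2 rose in each, beside 0.509% and 5.71% of all genes. Between the variants, 2 of the 12 collagens were called higher and 5 lower in P522R, beside 16.5% and 18.3% of all genes. Without those libraries none was higher and 3 were lower, beside 1471 and 1488 of 22206 genes. Among the lower was Col1a1, a chain of type I collagen (log2 difference -0.79, SE 0.18, adjusted p = 0.00119 in the main fit). Its medians were 5.77, 17.2 and 8.75 CPM in 5xFAD, M28L and P522R. The genes of the set called between the variants were all higher in P522R.

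Among the other small leucine-rich proteoglycans, 11 of 14 were tested. In P522R against 5xFAD 5 rose and 1 fell (median over the 11 tested 0.547), and without those libraries 3 rose. The rise was led by Prelp, at 44.1 to 67.3 CPM in P522R and 20.3 to 28.9 in 5xFAD (log2 difference 1.14, adjusted p = 7.14e-08), then Bgn, the close relative of decorin (0.83), Fmod (0.55) and Tsku (0.65). In M28L Bgn rose (0.64, adjusted p = 0.00783), the only one called there. Of 22 partners of fibronectin and other matrix genes, 8 rose and 2 fell in P522R (median over the list 0.209), and 4 rose and 1 fell without those libraries, with Fbln1 (1.07), Vtn (0.72) and Sparc (0.43) higher and the integrin gene Itga4 lower (-0.49). In M28L 5 of the 22 rose, beside 0.503% of all genes. They were led by the matricellular gene Thbs1 (log2 difference 2.89, adjusted p = 1.38e-05), with Fbln2 (0.97), Tnc (1.27) and Nid1 (0.45). The 8 Thbs1 values had a median of 9.95 CPM and a highest of 25.5, against 1.05 to 1.60 in 5xFAD.

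Of the IGF axis 14 of 18 genes were tested, and most of those called were not binding proteins. In P522R Igfbp6 rose (0.33), the receptor genes Insr (-0.32) and Igf2r (-0.40) and the RNA-binding protein gene Igf2bp2 (-0.66) fell, and 2 rose and 3 fell in all (median over the list -0.051), against none and 2 of 16 without those libraries. In M28L Irs2 (0.58) and the protease gene Pappa (1.37) rose and Igf1 fell (-0.61, from a median of 10.4 to 6.68 CPM). Of 17 genes of retinoic acid metabolism, 5 rose and none fell in P522R, with a median over the list of 0.077, and 3 rose without those libraries: among the 5 were Dhrs3, which reduces retinaldehyde (0.54), the retinoic acid-binding protein gene Crabp2 (0.80) and the retinol transporter Stra6 (0.76). None of the 17 was called in M28L in edgeR, where 2 had an unadjusted p under 0.05. Beside Slc6a13, 2 of 6 genes of GABA and taurine handling rose in P522R, Slc6a12 (0.96) and Slc6a11 (0.32), and the taurine transporter Slc6a6 fell (-0.37); without those libraries none rose and 1 fell. Of 8 tested genes of calcification control beside Mgp, Bmp4 alone was called in P522R, at 0.39 (adjusted p = 0.0417), and none rose and 1 fell without those libraries.

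Markers of other cells at the brain's borders and vessels were described in the same way, beside the 15.0% of all genes called higher in P522R. Of 14 mural cell genes 8 rose in P522R and none fell (median 0.540), and 2 rose and 1 fell without the 5 libraries over 10% Bc1. Their summed level was 192 to 256 CPM in 5xFAD, 159 to 244 in M28L and 229 to 389 in P522R. Of 10 genes of border macrophages 6 rose and none fell (median 0.615), among them Lyve1 (0.99) and Cd163 (0.79), and 2 rose without those libraries (median 0.514). Their sums were 8.40 to 12.3, 7.06 to 14.2 and 14.2 to 20.5 CPM. Of 15 endothelial genes 3 rose (median 0.052), a share near that of all genes, and of 7 tested ependymal genes 3 rose; without those libraries 2 and none rose. Of 14 tested choroid plexus genes 3 rose in P522R, also near the share of all genes, but the median log2 difference was 0.826 and 12 were above 0; without those libraries 1 of 15 rose (median 0.482). In M28L the choroid plexus median was 0.829, all 14 were above 0, 11 had an unadjusted p under 0.05 and Otx2 was called (2.02, adjusted p = 0.0347). Otx2 was scarce, with medians of 0.114 CPM in 5xFAD and 0.212 in M28L. Without the 5 libraries over 10% Bc1 none of 15 was called in M28L (median 1.009). The choroid plexus sums were 184 to 250, 215 to 671 and 163 to 250 CPM in 5xFAD, M28L and P522R. Most of the sum was Enpp2, with a median of 201 CPM in 5xFAD beside a median sum of 210. In M28L the median sum was 232, far under its highest value, and Ttr had a median of 0.455 and a highest value of 240 CPM. Of 10 astrocyte genes 3 rose and 1 fell in P522R, and of 10 neuronal genes 1 rose and 4 fell, beside 14.8% of all genes called lower. Without the 5 libraries over 10% Bc1, 2 astrocyte genes rose and 1 fell, and no neuronal gene rose and 1 fell. Of the 5 blood genes tested none was called in edgeR in either variant against 5xFAD, and none had an unadjusted p under 0.05 there. Between the variants none was called and 1 had an unadjusted p under 0.05. No gene of these lists was at 0 in all libraries. The part of these cells, or of how much membrane and vessel each sample held, in the rise of the 10 genes was not tested.

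**Figure D5:**
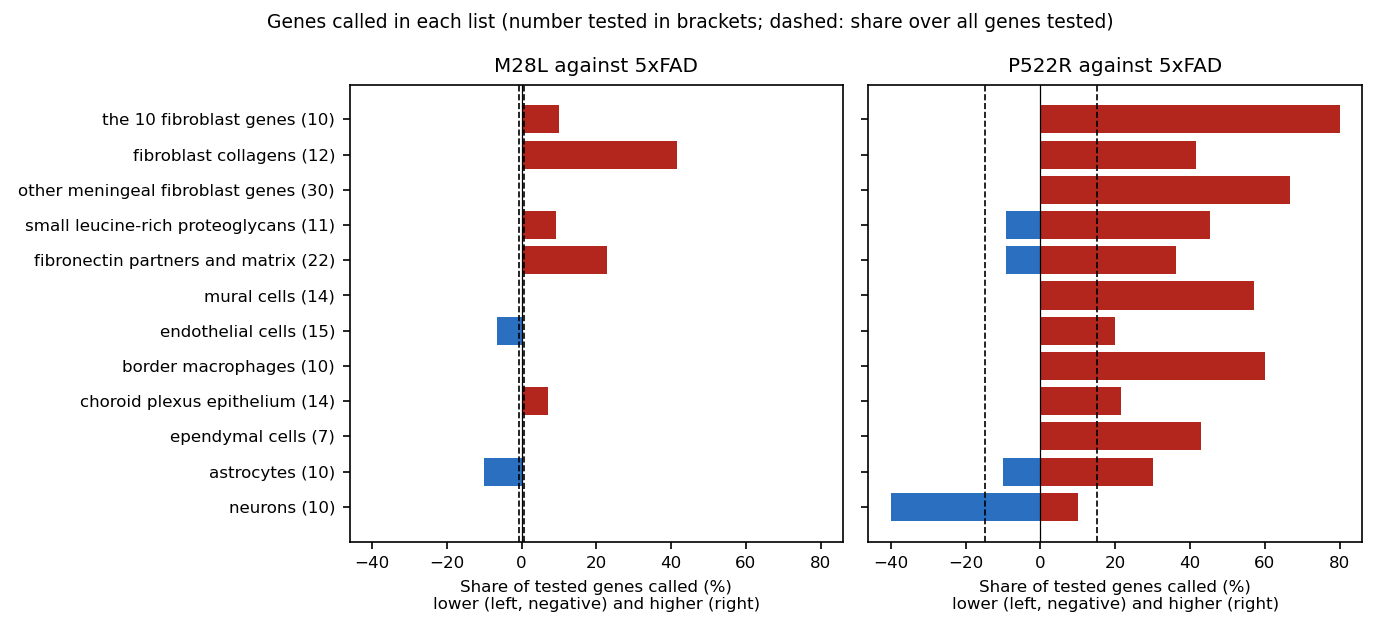
Share of tested genes called higher or lower (horizontal axis, percent) in each list and comparison, with the number tested in brackets and the share over all genes as a dashed line. In P522R against 5xFAD the 10 genes, the 30 other fibroblast genes, the mural genes and the border macrophage genes all lie to the higher side; in M28L few genes of any list are called apart from the collagens and matrix genes.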

How the data were processed

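Bulk mRNA libraries (KAPA mRNA HyperPrep, per the labels' protocols) were aligned with STAR 2.7.2b and counted with featureCounts, per the submitters' processing notes. Build, annotation and strand setting: not given in the sources used here. Raw counts of reads per gene were what the authors deposited for 24 libraries, with a gene length in bases that served only to put levels per kilobase. Of 53647 gene identifiers, 97.1% matched GENCODE M21 for symbols; none named no gene.

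Counts were filtered with edgeR 4.0.16 (filterByExpr, leaving 21280 genes), scaled by TMM and fitted by quasi-likelihood with genotype and title letter over all 24 libraries (R 4.3.3). A second fit with 6 means gave differences within letters and tests between letters. Adjusted p is Benjamini-Hochberg over all genes tested, SE is the log2 difference over the square root of F, and intervals are 1.96 SE either side. DESeq2 1.42.0 and limma 3.58.1 were alternatives. On simulated counts the test recovered 54% of genes changed by 0.5 log2 and 73% by 1 in the M28L comparison over 20968 genes, and 44% and 79% in the P522R comparison over 20979 genes. False calls were 7.3% and 6.82% of calls. Each gene was simulated independently, with few genes changed, no letter difference and no variation shared between genes of a library beyond its total. These rates may therefore not hold for the real libraries. No 2 libraries agreed within sampling noise (chi-square over degrees of freedom at least 7.15 in 276 pairs).

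The members and lists were chosen with earlier results of these data known. Named genes are all 10 members, up to 4 tested genes with the smallest p per list and comparison, and the 5 protein-coding genes most like the members' mean. The list medians and counts are descriptions without a set test. Promoter sequences and starts are from RefSeq (GRCm38.p6), matched by symbol.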

Additional observations from a re-analysis of the deposited data

Results flagged for a closer look

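In 3 of the 30 groups of 8 libraries tested (10 genes in 3 genotypes), 1 library lay far from the rest by Dixon's criterion at its 95% critical value; chance flags about 1 in 20 groups. Dcn in P522R replicate 21 was 30.6 CPM, with the next highest library at 23.9. Lum in 5xFAD replicate 1180 was 0.952 CPM, with the next lowest at 1.22. Fn1 in M28L replicate 12 was 64.4 CPM, with the next highest at 46.8. Leaving out each of these libraries in turn ended no call of Dcn or Fn1 between genotypes. Lum had no call between genotypes in the main fit to lose.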

How the results depend on the processing

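The 8 genes called in P522R against 5xFAD came to between 6 and 8 under every alternative run, and none of the 10 genes was called lower in any comparison of genotypes. Of 1050 single values of the 10 genes under alternatives, 1000 kept their direction and side of the threshold. For M28L against 5xFAD, the 258 genes called became 540 with DESeq2, 3844 with limma-voom and sample weights, 49 with no letter term, 72 with Bc1 share as a covariate, 619 with offsets for GC content and length, and 707 with only those 2 genotypes. The 1 member called became 2, 3, 0, 3 and 2 with DESeq2, limma-voom, the Bc1 covariate, the GC and length offsets and only those 2 genotypes. Leaving out 1 library gave 157 to 308 genes, at 158, 157, 160 and 163 without 5xFAD replicates 1180, 1190, 1248 and 1181. For P522R against 5xFAD, 6344 genes became 889 with the Bc1 covariate and 2563 without the libraries over 10% Bc1, and 5383 to 7489 leaving out 1 library. For P522R against M28L, 7405 became 20 and 2959 under those settings (6443 to 8402 leaving out 1 library), and the 4 members called became 0 and 2. Values that changed sign were all uncalled in that setting: Slc6a13 in M28L at -0.0031 with the filter at a mean of 1 CPM, -0.0584 without the libraries over 10% Bc1 and -0.067 to 0.0904 leaving out 1 library. Igf2 in M28L was -0.15 with the Bc1 covariate. Between the variants Igf2 was -0.21 with limma-voom, -0.0169 with GC and length offsets and -0.0944 to 0.1751 leaving out 1 library; Fn1 was -0.0513 without the libraries over 10% Bc1; with GC and length offsets Igfbp2 was -0.064 and Foxc1 -0.0249. The cause of these changes was not tested. A replicate block on the letter and number before the animal number in the titles was added after the data were seen. It gave 101, 936 and 1259 genes called in M28L against 5xFAD, P522R against 5xFAD and P522R against M28L. These were 0.475%, 4.4% and 5.92% of the genes tested, in either direction, and 0, 6 and 1 members were called higher. Fn1 in M28L was 0.61 (adjusted p = 0.446), Igfbp2 and Slc6a13 in M28L were -0.0519 and -0.1537, and Foxc1 between the variants was -0.0248. The 24 libraries carry 16 such numbers, of which 7 are shared by genotypes, so the block leaves few libraries to compare. Of 9 pairs of libraries with the same number in different genotypes, 2 had deviations that correlated above 0.1. The median was 0.006, and -0.003 for 87 pairs with different numbers. So few pairs cannot decide whether libraries with the same number were handled together. Counts were low for Lum (74 to 323 reads per library) and Igf2 (24 to 183), and the part of this in their spread was not tested.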
